A study of Mus musculus with 419 samples.

Results

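The genes described here encode chemokines, the small secreted or membrane-held proteins that guide leukocytes. They were taken by symbol, as the Ccl and Cxcl ligand genes together with Xcl1 and Cx3cl1, leaving out Ccl5 and Cxcl10. The rule found 43 rows with 38 symbols among the 55487 genes of the count table. Some symbols cover several near-identical genes: 4 symbols (Ccl19, Ccl21a, Ccl21b and Ccl27) covered 9 rows. No read was counted in any library for 6 rows, and 10 rows held under 10 counts in all.

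Poly(A) RNA had been sequenced from 19 tissues of CBA/CaJ mice, an inbred strain, in a series on relative energy deficiency in sport (REDs). Energy-sufficient mice (Control) and energy-deficient mice (Deficient) were each taken at ZT05 and ZT17, that is 5 and 17 h of zeitgeber time, which counts hours in the light cycle. The 419 libraries came from 12 females and 24 males by their animal numbers, and each of 140 groups of tissue, sex, treatment and time held 3 libraries, except for 2 in the tibialis anterior tendon of Control males at ZT05. All groups were CBA/CaJ, and the labels used here name no transgene, no age and no means by which the deficit was produced. Tissues of 1 animal are among the libraries, so results in different tissues are not independent, and p-values measure the spread between the animals sampled.

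Library totals ran from 5777450 to 53598697 counts. Males fell into 2 sets, called cohorts here, with separate ranges of animal numbers and column names of different form. The sample titles name no cohort. In 58 libraries, all from the first of 2 cohorts of males, more than 50% of the total fell on mitochondrial and rRNA-like genes, which left as few as 332749 counts for all other genes. All male libraries of the adrenal gland, kidney, soleus, tibialis anterior, extensor digitorum longus (EDL) and of the EDL and tibialis anterior tendons came from the second cohort, so that sex and cohort cannot be told apart there. Defining genes of the labelled tissue were high in their own libraries for every organ checked except the ovary. There the summed level of Amh, Zp3, Inha and Cyp19a1 ran from 2.01 to 850 CPM (counts scaled to library size) in Control and from 3.19 to 173 CPM in Deficient libraries. In part of the ovary libraries this sum was therefore near that of the female lung (0.77 to 2.15 CPM). Uterus-defining genes (Hoxa11, Pgr, Wnt7a and Esr1) summed to 49 to 364 CPM in Control and 162 to 299 CPM in Deficient ovary libraries, against 272 to 563 and 416 to 516 CPM in the uterus and 13.6 to 22.2 CPM in the female lung. Adrenal-defining genes ran from 0.106 to 2761 CPM in Control and from 0.221 to 1175 CPM in Deficient ovary libraries. The part of these marker levels in the values of the libraries labelled ovary was not tested.

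Chemokines bind receptors of the G-protein-coupled family on leukocytes and lead these cells along a gradient. Inflammatory members such as CCL2, CXCL1 and CXCL9 are made on demand, often downstream of NF-kappaB or interferon, and call monocytes, neutrophils or T cells. Homeostatic members such as CXCL12 and CXCL13 are made continuously by stromal and endothelial cells and hold stem cells in bone marrow or B cells in follicles. In mucosal tissue and glands, epithelial chemokines such as CCL28 and CXCL17 draw plasma cells and macrophages to the surface.

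Promoter letters of 4 members are shown because these genes changed in the uterus, as described below, and sit in tight clusters whose neighbours moved together or apart. Each line gives the 150 bases before the RefSeq start site (build GRCm38.p6, plus strand), and capitals mark a TATA box (TATAAA) or, in Cxcl1, a match to the NF-kappaB consensus.
Ccl8, chr11:82115035-82115184: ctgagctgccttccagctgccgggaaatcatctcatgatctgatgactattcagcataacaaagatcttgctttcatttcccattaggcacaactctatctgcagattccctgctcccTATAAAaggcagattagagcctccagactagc
Ccl12, chr11:82101695-82101844: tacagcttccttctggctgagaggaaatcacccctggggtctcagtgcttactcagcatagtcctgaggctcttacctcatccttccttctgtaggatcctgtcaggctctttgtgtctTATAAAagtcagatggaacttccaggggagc
Cxcl15, chr5:90794384-90794533: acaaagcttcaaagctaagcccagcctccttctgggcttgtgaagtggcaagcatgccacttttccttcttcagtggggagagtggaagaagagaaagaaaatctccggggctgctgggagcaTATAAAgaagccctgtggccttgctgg
Cxcl1, chr5:90891095-90891244: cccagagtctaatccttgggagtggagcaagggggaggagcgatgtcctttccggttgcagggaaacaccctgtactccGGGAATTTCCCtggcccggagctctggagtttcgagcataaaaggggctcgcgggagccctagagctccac

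The TATA box began 32 bases before the start of Ccl8, 31 before that of Ccl12 and 27 before that of Cxcl15. Cxcl1 had the NF-kappaB match at -71 to -61, read on both strands. RefSeq windows were matched for 26 of the 38 symbols, 32 windows in all, and 6 motifs were searched on both strands of the 250 bases before each start. TATAAA stood in 31.2% of the chemokine windows and in 12.4% of all 32851 windows. The NF-kappaB consensus stood in 18.8% against 7.25%. The C/EBP pattern TTNNGNAA stood in 43.8% (14 of 32 windows) against 36.8%, and the AP-1 pattern TGANTCA in 9.38% (3 windows) against 6.75%. Ccl27a and its near-copy Ccl27b each had several windows, some overlapping, and gave several of the C/EBP and AP-1 matches. The windows are therefore not independent genes, and no excess is read from these shares. The GAS pattern TTCNNNGAA (6.25% against 7.02%) and the E-box CACGTG (3.12% against 6.02%) were at or under the share of all windows. TTNNGNAA and TTCNNNGAA can overlap, and a match describes letters, not binding.

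In Control animals, the leading chemokine was compared between genes as CPM per kb of exon (mean ± SD, n = 6). Some leaders were shared by several tissues, and some differed between the sexes of a tissue. Cxcl15, known as lungkine for its expression in airway epithelium, led the lung with 418 ± 183 in females and 244 ± 80.3 in males. Cxcl13, which gathers B cells in follicles, led the spleen with 277 ± 57.7 in females and 125 ± 61.8 in males. Cxcl17, a mucosal chemokine, led the uterus with 162 ± 84.9, and Ccl8 followed there with 82.9 ± 32.1. The SDs of Cxcl17 and Ccl8 leave their order in the uterus unsettled.

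Liver was led by Cxcl12 in females (62.0 ± 13.8) and by Ccl9 in males (15.8 ± 6.33). Ccl28, which draws IgA plasma cells, led the male kidney (51.6 ± 27.9), while Cxcl12 led the female kidney (20.9 ± 2.66). Ccl8 led the ovary (17.2 ± 12.6). The pituitary had Cx3cl1 first in females (17 ± 4.19) and Cxcl14 first in males (30.0 ± 5.19). The adrenal gland had the reverse, with Cxcl14 (10.2 ± 5.62) first in females and Cx3cl1 (6.93 ± 1.05) in males. In heart, Cxcl12 was first in females (23.7 ± 4.01) and Cxcl16 in males (10.3 ± 1.82). These orders within a sex are descriptions, and levels of the sexes were not tested against each other.

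Muscles and tendons shared a common set. Cxcl14, a chemokine of stroma and epithelium, Cxcl12 and the eosinophil attractant Ccl11 took the first 3 places in each muscle and tendon of both sexes, except that Ccl8 stood in place of Cxcl12 in the first 3 in the male quadriceps and the male gastrocnemius tendon, with Cxcl14 reaching 70.0 ± 27.8 CPM per kb in the male quadriceps. Brown adipose tissue (BAT) had Cxcl12 first in females (25.1 ± 13.1) and Ccl11 in males (41.7 ± 8.49). Testis was led by the row of Ccl27a (26.5 ± 2.31), and 69.2% of the 50-base words of its transcript also occur in other genes, so that its level is uncertain. The same holds for Ccl19, Ccl21a, Ccl21b and Ccl27b, with 59.1% or more shared, for Cxcl11 (40.9%), which GENCODE M21 lists as a polymorphic pseudogene, and, less, for Cxcl16 (20%, shared with Zmynd15).

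**Figure D1:**
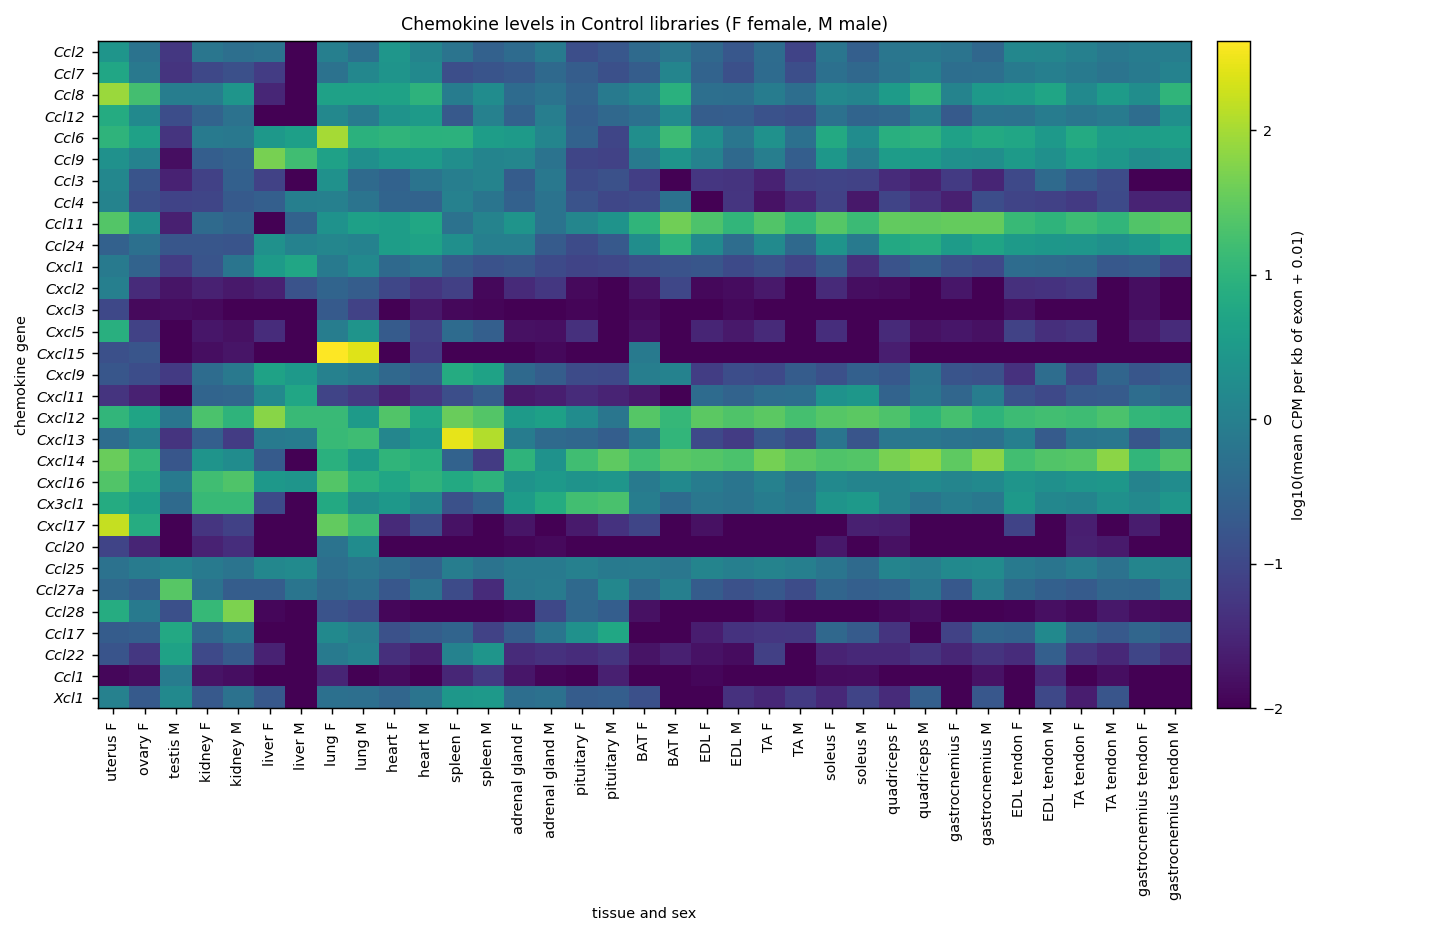
Mean level of 31 chemokine genes (rows) in Control libraries of each tissue and sex (columns, F female, M male), as log10 of CPM per kb of exon + 0.01. Bright cells show one or a few leading genes per tissue, such as Cxcl15 in lung (418 and 244 CPM per kb), Cxcl13 in spleen and Cxcl17 in uterus, while Cxcl12 was present in all tissues.

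The first question was how energy deficiency changed these genes. Deficient was compared with Control within each tissue and sex, averaged over both times, by edgeR's quasi-likelihood test. A gene is called where the Benjamini-Hochberg adjusted p over all genes tested in that fit was under 0.05. A low-count filter left 31 of the 43 rows tested in at least 1 tissue and 12 in none. In females, 304 pairs of gene and tissue were tested, of which 55 (18.1%) fell and 7 (2.30%) rose. Over all genes in the same female fits, 7.37% of pairs fell and 6.75% rose. In males, 8 of 224 pairs (3.57%) fell and 5 (2.23%) rose, against 2.45% and 2.29% over all genes.

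The median log2 fold change of the tested pairs was -0.22 in females and -0.04 in males. At an unadjusted p under 0.05 (edgeR), 116 of 304 female pairs differed, against 87445 of 287605 pairs over all genes. In males 48 of 224 pairs differed, against 41347 of 248093. Of the 62 called female pairs, the 6 Deficient libraries lay wholly above or below the 6 Control libraries in 18, and in 44 the arms overlapped. In males the arms were apart in 5 of 13 called pairs. The same count was not made over all called genes, so nothing particular to chemokines is read from it. Whether fewer cells of a type or less RNA per cell lies behind a level in such bulk tissue cannot be told apart.

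**Figure D2:**
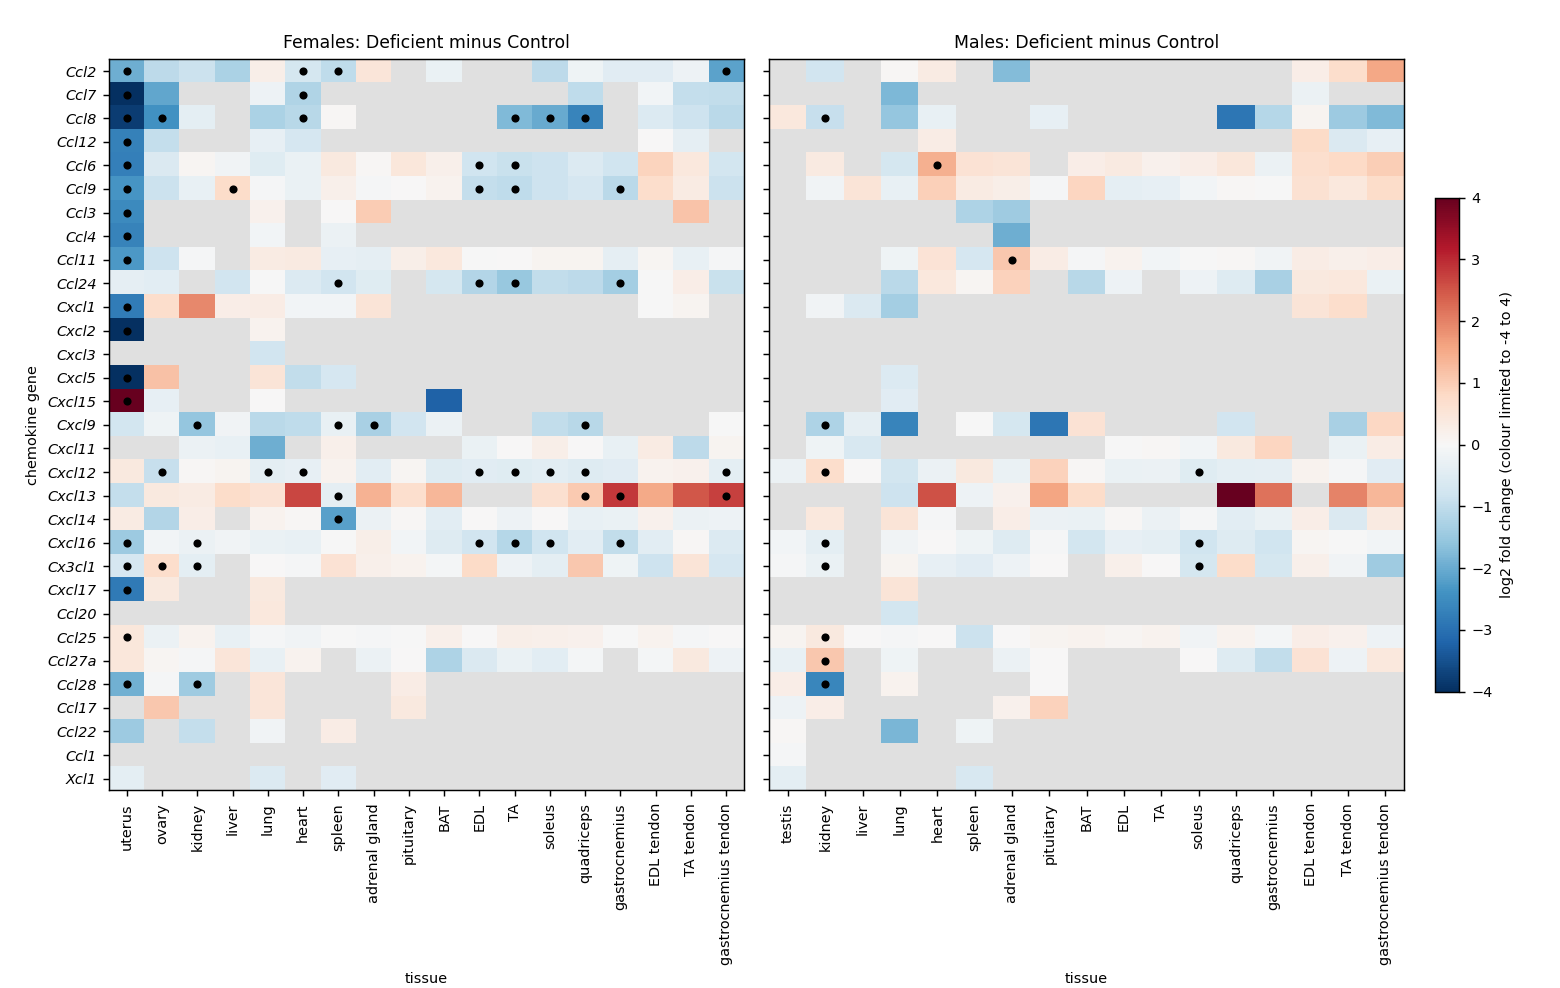
Log2 fold change of Deficient against Control for 31 chemokine genes (rows) by tissue (columns), females left and males right, with colour limited to -4 to 4, grey where the gene was not tested and a black dot where it was called. Dots stand mostly on blue cells in females, 55 lower against 7 higher, and the uterus column holds 18 of them.

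The uterus held the largest group of changes. Of 26 chemokine genes tested there, 16 fell and 2 rose, with a median log2 fold change of -1.94, in a tissue where 44.9% of all tested genes were called. All 5 tested genes of the monocyte chemoattractant cluster on chromosome 11 fell, namely Ccl2, Ccl7, Ccl11, Ccl12 and Ccl8, which lie side by side between 82035571 and 82116799 (GRCm38). So did Ccl9, Ccl6, Ccl3 and Ccl4, which lie between 83572919 and 83664683.

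Ccl8, a ligand of monocyte and other CC receptors (chr11:82115185-82116799), read 61.4, 18.6 and 53.9 CPM in Control at ZT05 and 36.8, 30.4 and 53.1 at ZT17. Deficient uteri gave 7.96, 3.01 and 3.62 CPM at ZT05 and 1.76, 2.58 and 1.24 at ZT17. Each Deficient library was below each Control library, with a log2 difference of -3.81 ± 0.37 (SE, adjusted p = 0.000184, edgeR). Ccl7, which acts on the monocyte receptor CCR2, had 2.01, 3.24 and 8.17 CPM (lowest, median and highest) in Control and 0.0716, 0.211 and 0.765 in Deficient libraries. It fell by 4.01 ± 0.52 on the log2 scale (adjusted p = 0.000318), again with no overlap. Ccl2, the classical monocyte attractant, ran from 0.908 over 3.21 to 3.98 CPM against 0.119, 0.704 and 1.55, with overlapping arms and a change of -1.96 ± 0.50 (adjusted p = 0.00825).

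Ccl12, its close relative in mice, fell from 1.63, 3.42 and 7.72 CPM to 0.0716, 0.649 and 1.60 without overlap (-2.7 ± 0.51, adjusted p = 0.00155). Ccl6 and Ccl9, macrophage-made ligands of CCR1, moved alike. Ccl6 had 10.9, 16 and 30.4 CPM in Control and 1.11, 2.54 and 5.18 in Deficient libraries (-2.73 ± 0.38, adjusted p = 0.000425). Ccl9 had 3.51, 6.22 and 11.6 CPM against 0.625, 1.24 and 1.82 (-2.36 ± 0.35, adjusted p = 0.000464). Neither overlapped between the arms.

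Ccl3 and Ccl4, the macrophage inflammatory proteins, were low in the uterus, with highest values of 3.98 and 2.64 CPM, both in replicate 1 of Control at ZT17. Ccl3 changed by -2.56 ± 0.81 (adjusted p = 0.0232) and Ccl4 by -2.67 ± 0.63 (adjusted p = 0.00521). Without that library Ccl3 was at -1.21 (adjusted p = 0.104) and no longer called, and Ccl4 stayed called at -1.74. Ccl11 (eotaxin) was scattered in Control, at 45.4, 3.75 and 16.6 CPM at ZT05 and 3.79, 9.67 and 77.9 at ZT17, against 3.51 to 8.27 in Deficient libraries. Its call (-2.31 ± 0.70, adjusted p = 0.02) rested on the highest library, replicate 3 at ZT17, without which the change was -1.22 and the adjusted p 0.0745.

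The neutrophil attractants form a second cluster between 90759360 and 90905938 on chromosome 5, and here the members moved apart. Cxcl5, Cxcl1 and Cxcl2, all ligands of CXCR2, fell. Cxcl5 had 1.02, 0.976 and 4.07 CPM at ZT05 and 85.4, 0.571 and 0.549 at ZT17 in Control, and 0.0477 to 1.03 in Deficient libraries (-4.96 ± 1.31, adjusted p = 0.00988). Cxcl2 was highest in the same library, at 9.61 CPM, and was at 0 in each Deficient library of ZT05 (-6.79 ± 1.76, adjusted p = 0.0119). Cxcl1 too had its highest value there, 5.90 CPM against 0.167 to 1.51 in the other Control libraries (-2.79 ± 0.91, adjusted p = 0.0274).

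Leaving that library out took Cxcl5 to -2.13 and Cxcl2 to -3.96, both still called, and Cxcl1 to -1.14 with an adjusted p of 0.159. Cxcl15 (chr5:90794534-90803067), between Cxcl5 and Cxcl1, went the other way. It was at 0, 0.0915 and 0 CPM in Control at ZT05 and at 0.0383, 1.45 and 0 at ZT17, but at 5.07, 18.3 and 15.2 in Deficient at ZT05 and 18.0, 24.9 and 18.9 at ZT17. The arms were apart, with a log2 fold change of 6.99 ± 0.95 (adjusted p = 0.00037) that depends on the near-absent Control reads. Lung-defining genes (4 listed) summed to 0.439 to 1.78 CPM in Control and 0.743 to 1.74 CPM in Deficient uteri.

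Epithelial and membrane-bound members fell as well. Cxcl17, a mucosal macrophage attractant, had 141, 92.8 and 229 CPM in Control at ZT05 and 136, 33.8 and 107 at ZT17, and 9.91 to 26.2 in Deficient libraries (-2.84 ± 0.34, adjusted p = 0.00028). Ccl28 had 20.1, 25.1 and 76.9 CPM (lowest, median, highest) against 5.54, 9.17 and 15.6 (-1.91 ± 0.33, adjusted p = 0.00108). Cxcl16, which is tethered to the membrane and binds CXCR6, had 44.9, 61.3 and 124 CPM against 17, 27.1 and 34.4 (-1.44 ± 0.28, adjusted p = 0.0018). None of these 3 overlapped between the arms. Cx3cl1 changed less (-0.67 ± 0.25, adjusted p = 0.0452), and Ccl25 rose by 0.46 ± 0.15 (adjusted p = 0.0225), both with overlap and both losing the call when some single libraries were left out.

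The other 8 genes tested in the uterus were not called. Cxcl12 was at 0.39 ± 0.18 (adjusted p = 0.0972), Cxcl14 at 0.32 ± 0.26 (adjusted p = 0.325), Cxcl13 at -0.94 ± 0.45 (adjusted p = 0.104) and Cxcl9 at -0.74 ± 0.34 (adjusted p = 0.092). The highest absolute change among the 8 was that of Ccl22, -1.44 ± 0.65 (adjusted p = 0.091).

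Cell markers moved with these genes in the uterus. Of macrophage and monocyte markers 12 of 14 tested fell (median -1.41), and their summed level was 438 to 708 CPM in Control and 148 to 281 in Deficient libraries, with no overlap. All 7 tested neutrophil markers fell (median -3.53), with sums of 1129 to 7028 CPM against 21.5 to 639. Of the 12 listed genes, 2 were at 0 in both arms. The same list summed to 75.6 to 232 CPM in Control female spleen and 42.5 to 132 CPM in Control female lung. The uterine sum is therefore not read as a number of neutrophils. Of epithelial markers 7 of 8 fell, with sums of 801 to 2485 CPM against 471 to 882. Endothelial markers went the other way, 8 of 10 rising and 1 falling. Replicate 1 of Control at ZT17, which was highest for Cxcl1, Cxcl2, Cxcl5, Ccl3, Ccl4 and Ccl28, also had the highest sums of both marker lists. These were 708 CPM for the macrophage list and 7028 CPM for the neutrophil list. Tnf, Il1a and Il1b, cytokines that induce chemokines, also fell (3 of 5 tested), as did 6 of 12 NF-kappaB feedback targets. The part of any of these in the chemokine values was not tested.

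**Figure D3:**
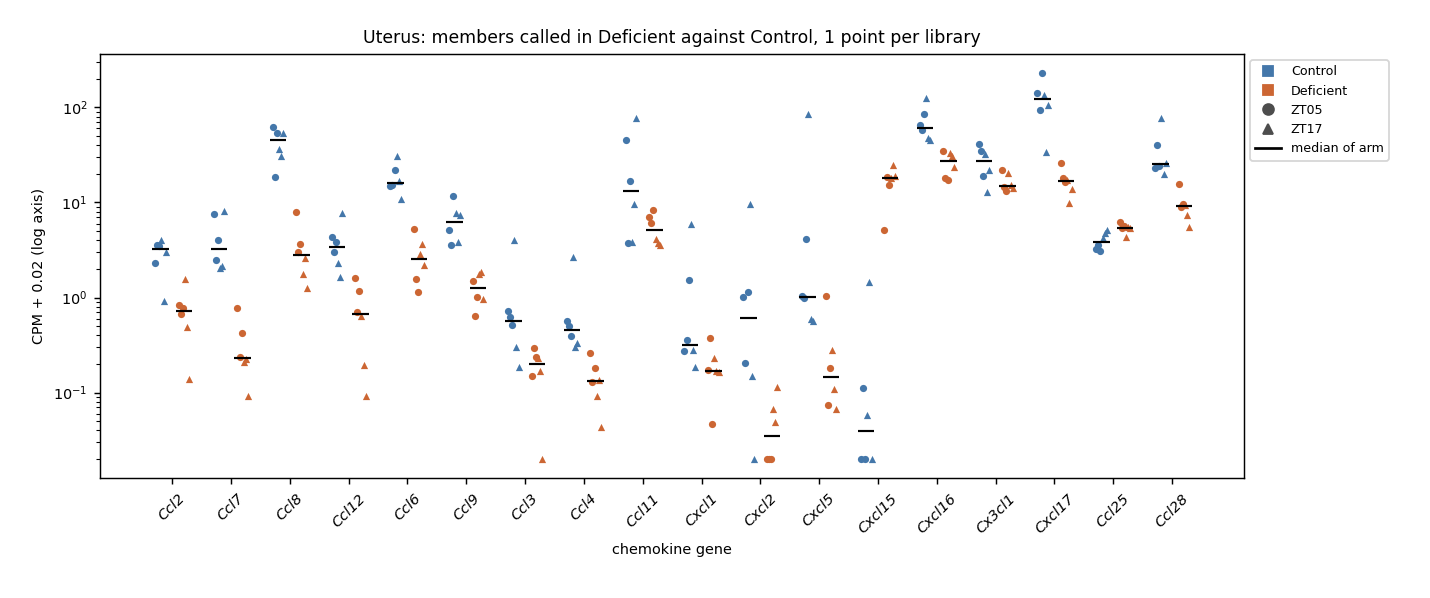
CPM + 0.02 (log axis) of the 18 chemokine genes called in the uterus, 1 point per library, Control and Deficient side by side, circles ZT05 and triangles ZT17, black lines the median of an arm. The Deficient median lies below the Control median for 16 genes, without overlap for Ccl8, Ccl7 and Cxcl17 among others, and above them for Cxcl15 (5.07 to 24.9 CPM against 0 to 1.45) and, with overlap, for Ccl25.

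Counting the uterus, Ccl8 fell in 6 of the 12 female tissues where it was tested. In the ovary it had 17.2, 1.15 and 3.98 CPM at ZT05 and 5.15, 10.4 and 15 at ZT17 in Control, against 0.756 to 2.67 in Deficient libraries (-2.42 ± 0.56, adjusted p = 0.0283). In the quadriceps it had 0.419, 1.5 and 3.61 CPM (lowest, median, highest) against 0.0487, 0.326 and 0.516 (-2.65 ± 0.51, adjusted p = 0.00416). In the heart it had 1.76, 2.30 and 2.7 CPM against 0.223, 1.05 and 1.67 without overlap (-1.12 ± 0.29, adjusted p = 0.0169). Soleus (-2.03 ± 0.39) and tibialis anterior (-1.76 ± 0.44) had Ccl8 at 1.04 CPM or less in each library. Background shares of called genes were 10.1% in the ovary, 18.8% in the female quadriceps, 15.3% in the female heart, 15.9% in the female soleus and 32.5% in the female tibialis anterior. Ccl8 was not called in the kidney of females, but it was in males (-0.92 ± 0.29, adjusted p = 0.0214, edgeR).

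Other monocyte attractants fell in fewer tissues. Ccl2 fell in 4 female tissues, the uterus, the gastrocnemius tendon (0.286, 0.829 and 1.68 CPM against 0, 0.241 and 0.560; -2.15 ± 0.54), the heart (-0.71 ± 0.22) and the spleen (-1.02 ± 0.31). Ccl7 in the heart read 2.74, 1.39 and 2.84 CPM at ZT05 and 1.49, 0.928 and 2.19 at ZT17 in Control. Deficient hearts gave 1.24, 1.2 and 0.612 CPM at ZT05 and 0.779, 0.961 and 0.248 at ZT17, with overlap and a change of -1.21 ± 0.32 (adjusted p = 0.0208, edgeR). The background was 17.7% in the female gastrocnemius tendon and 11.2% in the female spleen.

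Ccl6, Ccl9 and Ccl24 all fell in the EDL and tibialis anterior of females, and Ccl9 and Ccl24 in the gastrocnemius, while none of the 3 was called in soleus or quadriceps. Ccl24 (eotaxin-2) fell in the EDL (-1.18 ± 0.39), gastrocnemius (-1.37 ± 0.34), tibialis anterior (-1.53 ± 0.34, adjusted p = 0.00443) and spleen (-0.76 ± 0.18). In the tibialis anterior its Control libraries gave 1.79, 1.51 and 1.49 CPM at ZT05 and 1.87, 1.13 and 4.97 at ZT17, and its Deficient libraries 0.486 to 1.2. Ccl9 fell in the EDL (-0.94 ± 0.19), gastrocnemius (-1.07 ± 0.25) and tibialis anterior (-1.03 ± 0.20, adjusted p = 0.00162). Ccl6 fell in the EDL (-0.79 ± 0.26) and tibialis anterior (-0.89 ± 0.25). The background was 30.2% in the female EDL and 10% in the female gastrocnemius, where Ccl24 lost its call without any one of several libraries.

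Macrophage markers fell in the female muscles where Ccl6, Ccl8, Ccl9 or Ccl24 fell, 10 of 13 tested in the female tibialis anterior, 8 of 14 each in quadriceps and soleus, 7 of 13 in the EDL and 5 of 13 in the gastrocnemius. Summed macrophage levels in the tibialis anterior were 112 ± 20.6 CPM in Control and 67.9 ± 15.9 CPM in Deficient libraries (SD, n = 6). In the soleus they were 323 ± 152 against 176 ± 41.6 CPM. Their part in the falls of Ccl6, Ccl8, Ccl9 and Ccl24 was not tested. Of eosinophil and mast cell markers, 4 of 5 fell in the EDL and 4 of 5 in the tibialis anterior.

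Ccl9 had the opposite direction in the liver, where it is among the most abundant chemokines. Female Control livers gave 125, 153 and 156 CPM at ZT05 and 140, 145 and 124 at ZT17. Deficient livers gave 187, 250 and 246 CPM at ZT05 and 217, 236 and 266 at ZT17, each above each Control library, a log2 fold change of 0.73 ± 0.09 (adjusted p = 0.000182, background 13.9%). Male livers were at 0.53 ± 0.27 (adjusted p = 0.283), and the sexes did not differ by test (adjusted p = 0.827, edgeR). It was the only chemokine called of 12 tested in the female liver, where 2 of 13 macrophage markers fell.

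Ccl6 in the male heart was another rise. Control hearts gave 12.4, 10.8 and 13.7 CPM at ZT05 and 24.1, 11.5 and 24.8 at ZT17, and Deficient hearts 26.7, 74.3 and 42.4 at ZT05 and 26.8, 46.0 and 40.2 at ZT17. The arms did not overlap (1.41 ± 0.27), but the adjusted p was 0.05, just under the threshold, in a tissue where 0.394% of genes were called. The female heart was at -0.26 ± 0.17 for Ccl6 (adjusted p = 0.322), and the sex difference was not called (adjusted p = 0.118, edgeR). Summed macrophage markers in the male hearts were 413 ± 97.5 CPM in Control and 714 ± 229 CPM in Deficient libraries, with none of 13 called. Summed neutrophil markers were 49.6 ± 25.7 CPM and 245 ± 259 CPM, with none of 7 called. The part of either list was not tested. Ccl11 rose in the male adrenal gland (0.316, 0.618 and 0.983 CPM against 1.09, 1.23 and 1.69; 1.09 ± 0.24, adjusted p = 0.0359, background 2.05%).

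Interferon-induced T cell attractants were represented by Cxcl9, a CXCR3 ligand. It fell in 4 of 13 female tissues tested and had a negative change in each of the 13. Kidney gave 0.640, 1.30 and 1.74 CPM in Control and 0.0933, 0.455 and 0.673 in Deficient libraries (-1.54 ± 0.32, adjusted p = 0.00869, background 12.2%). The adrenal gland gave 0.549, 1.11 and 1.90 CPM against 0.222, 0.437 and 0.709 (-1.31 ± 0.29, adjusted p = 0.0443, background 1.89%). Both pairs of arms overlapped slightly. In the adrenal gland 4 of 10 fibroblast markers fell and none of 14 macrophage markers was called. The quadriceps (-1.12 ± 0.33) and the spleen (19.3, 20.9 and 24.3 CPM against 12.8, 16.6 and 23.2; -0.30 ± 0.09) were the others. In the male kidney Cxcl9 changed by -1.24 ± 0.45, which was -0.70 with an adjusted p of 0.145 without replicate 2 of Control at ZT17. Cxcl11 was called in no response.

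The homeostatic chemokine Cxcl12, the ligand of CXCR4 (chr6:117168535-117181367), changed little per tissue but in many. It fell in 8 of 18 female tissues. EDL gave 157, 248 and 289 CPM in Control and 130, 161 and 200 in Deficient libraries (-0.46 ± 0.09, adjusted p = 0.00159). The tibialis anterior gave 179, 234 and 289 CPM against 127, 154 and 234 (-0.49 ± 0.09, adjusted p = 0.000829). The ovary gave the largest fall of Cxcl12, from 31.4, 41.2 and 47.1 CPM to 12.1, 21.4 and 31.6 (-0.91 ± 0.22, adjusted p = 0.0329). The arms of all 8 overlapped.

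Quadriceps (-0.51 ± 0.11), soleus (-0.41 ± 0.10), gastrocnemius tendon (-0.40 ± 0.12), heart (-0.32 ± 0.08) and lung (-0.39 ± 0.11) made up the rest for Cxcl12. In the lung the difference stood at ZT05, with 183, 130 and 123 CPM in Control against 72.9, 86.8 and 91.6 in Deficient libraries, while at ZT17 the values were 89.5, 66.8 and 85.5 against 75.1, 70.4 and 89.0. That call had an adjusted p of 0.049 with a background of 7.94% and was lost without any of 10 single libraries. Male soleus fell by a like amount, from 167, 219 and 330 CPM to 133, 155 and 218 (-0.47 ± 0.09, adjusted p = 0.00646, background 11.8%). Fibroblast counts are given here for all of these tissues but the gastrocnemius tendon and lung. Fibroblast markers fell beside Cxcl12, 9 of 10 in the female tibialis anterior, 8 each in EDL and soleus, 7 in quadriceps, 6 in heart, 5 in ovary and 3 of 10 in male soleus. Endothelial markers, of which at most 4 of 10 fell in any of these tissues, moved in both directions. The part of either list was not tested.

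In the kidney the response of Cxcl12 differed between the sexes. Male Control kidneys gave 79.6, 73.9 and 94.0 CPM at ZT05 and 94.6, 70.7 and 73.6 at ZT17. Deficient kidneys gave 143, 161 and 121 CPM at ZT05 and 118, 141 and 112 at ZT17, with no overlap (0.69 ± 0.10, adjusted p = 0.000319). Female kidneys stood at 151 to 210 CPM in Control and 143 to 216 in Deficient libraries (0.04 ± 0.10, adjusted p = 0.804). The female response was lower than the male by 0.63 ± 0.15 on the log2 scale (adjusted p = 0.0075, edgeR), and Deficient males reached into the range of females. A sex difference of the response was called for 13.8% of all genes tested in the kidney. The male kidney libraries were all of the second cohort, so cohort and sex cannot be told apart in this difference.

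Ccl28 fell in the kidney of both sexes (chr13:119623819-119654359). Male Control kidneys gave 221, 362 and 135 CPM at ZT05 and 121, 462 and 200 at ZT17, and Deficient kidneys 30.8, 15.3 and 73.4 at ZT05 and 38.3, 41.9 and 51.2 at ZT17. The arms were apart (-2.60 ± 0.49, adjusted p = 0.00418). Females gave 27.1, 59.5 and 114 CPM in Control and 8.36, 21.4 and 30.6 in Deficient libraries (-1.41 ± 0.33, adjusted p = 0.0261), with overlap and a call that 5 of 12 single-library omissions removed. The difference between the sexes was 1.22 ± 0.58 (adjusted p = 0.177, edgeR). In the male kidney 37.8% of tested genes were called, and 8 of the 15 chemokine genes tested there were, 5 lower and 3 higher. Ccl25, a thymic and gut chemokine (0.39 ± 0.12), and the copy-rich Ccl27a (1.07 ± 0.33) were the other rises. Beside these kidney results, 5 of 13 macrophage and 7 of 10 fibroblast markers fell in females, and 3 of 12 and 5 of 10 in males, in whom 3 fibroblast markers rose. Their part was not tested.

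Both membrane-tethered chemokines fell in several tissues. Cxcl16 fell in 6 of 18 female tissues. The tibialis anterior gave 3.35, 3.23 and 3.34 CPM at ZT05 and 2.85, 3.28 and 3.26 at ZT17 in Control, and 1.35, 1.61 and 1.46 at ZT05 and 1.0, 1.77 and 1.25 at ZT17 in Deficient libraries (-1.13 ± 0.15, adjusted p = 0.0001). Soleus gave 3.87, 4.6 and 5.26 CPM against 2.23, 2.64 and 3.01 in females (-0.79 ± 0.11, adjusted p = 0.000913). Male soleus gave 2.87, 3.64 and 4.74 CPM against 1.56, 2.14 and 2.49 (-0.80 ± 0.15, adjusted p = 0.00579). In these and in the female EDL (-0.77 ± 0.14, adjusted p = 0.0013) the arms did not overlap.

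In soleus both Cxcl16 and Cxcl12 were called lower in each sex, and the sex difference in soleus was 0.04 ± 0.18 for Cxcl16 (adjusted p = 0.96, edgeR). No macrophage marker was called in the male soleus, where their sum was 129 ± 18.9 CPM in Control and 120 ± 34.8 CPM in Deficient libraries. Cxcl16 also fell in the female gastrocnemius (-0.97 ± 0.28) and slightly in the kidney of females (-0.24 ± 0.07) and males (-0.39 ± 0.14), these 3 losing the call without any of 6 or more single libraries. Without replicate 2 of Control at ZT17 the male kidney was at -0.24 (adjusted p = 0.0991, edgeR).

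Cx3cl1, or fractalkine, the ligand of CX3CR1, fell in the female kidney from 47.1, 50.4 and 57.3 CPM to 33.5, 40.1 and 42.1 without overlap (-0.38 ± 0.07, adjusted p = 0.00533). The male kidney (-0.26 ± 0.09) and the male soleus (7.79, 12.8 and 14.8 CPM against 6.14, 6.98 and 8.20; -0.71 ± 0.16, adjusted p = 0.0147) also fell. Cx3cl1 rose in the ovary, from 8.42, 15.7 and 19.8 CPM to 17.7, 26.2 and 29.5 (0.71 ± 0.16, adjusted p = 0.0255, edgeR). There the marker genes given above were uneven between libraries, and their part was not tested.

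**Figure D4:**
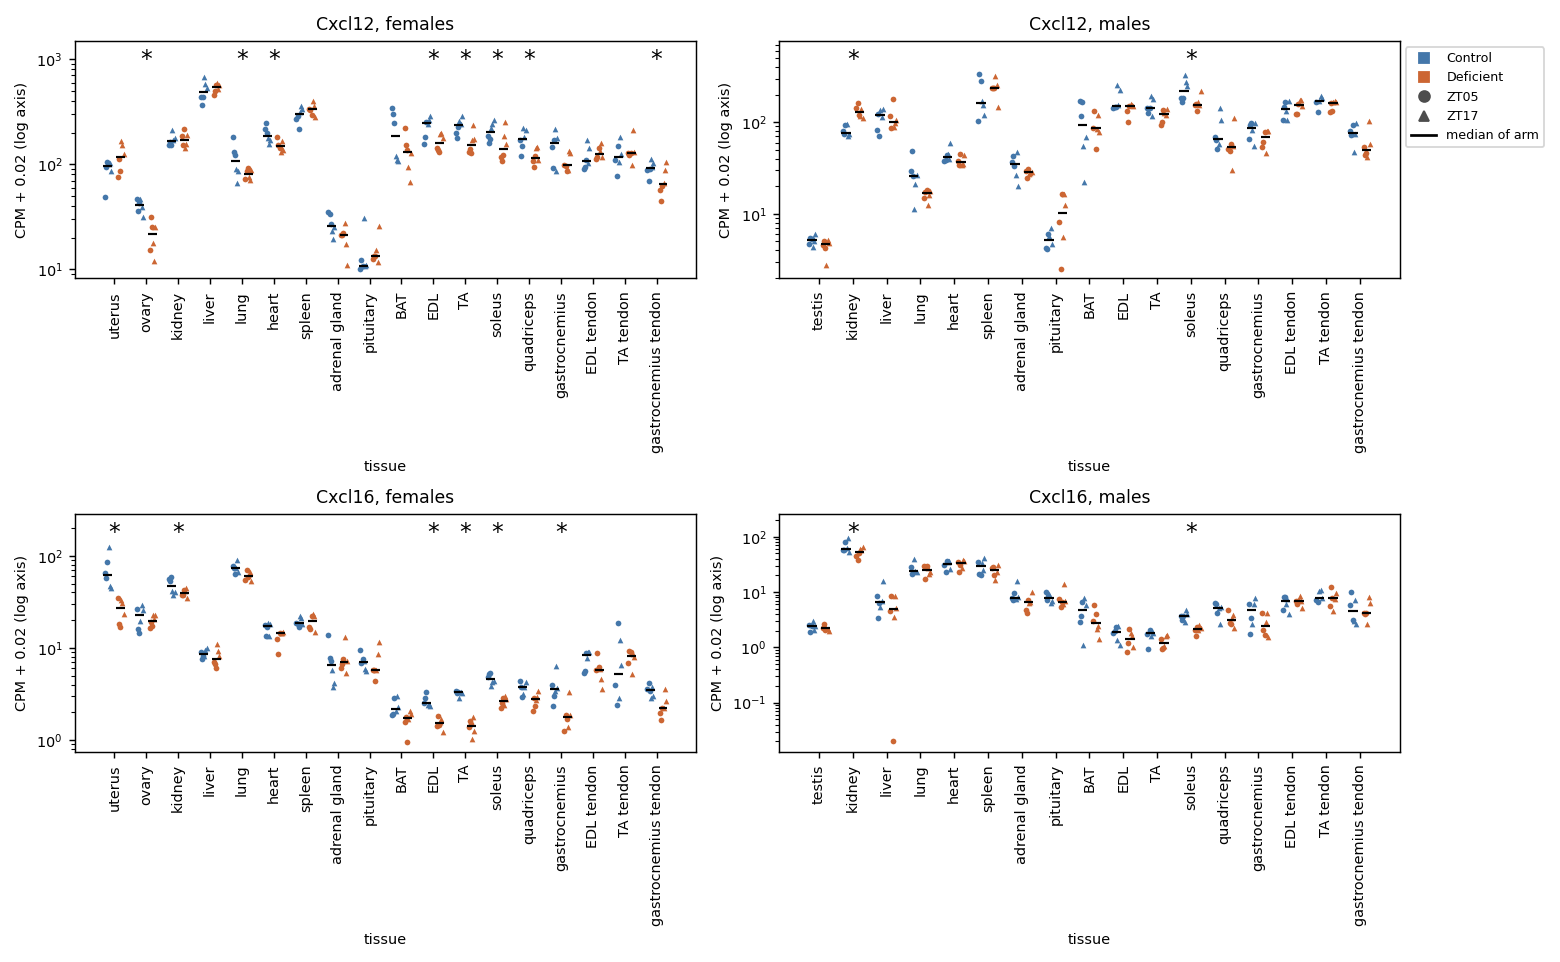
CPM + 0.02 (log axis) of Cxcl12 and Cxcl16 by tissue in females and males, 1 point per library, circles ZT05 and triangles ZT17, black lines the median of an arm, asterisks where the response was called. Cxcl16 points of Deficient muscles lie under those of Control in the tibialis anterior of females (1.0 to 1.77 against 2.85 to 3.35 CPM), and Cxcl12 points rise in the male kidney (112 to 161 against 70.7 to 94.6 CPM).

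Cxcl13 was the chemokine that rose in most female tissues, 3 of 16 tested, and its change was positive in 14. In the gastrocnemius it read 0.0573, 0.232 and 0.178 CPM at ZT05 and 0.483, 2.01 and 0.962 at ZT17 in Control, and 1.46, 1.42 and 0.720 at ZT05 and 4.37, 12.6 and 4.95 at ZT17 in Deficient libraries. At each time the Deficient libraries were above the Control ones, although the arms overlapped across times (2.82 ± 0.45, adjusted p = 0.00361). In the gastrocnemius tendon it read 0.131, 0.168 and 0.0571 CPM at ZT05 and 0.224, 0.462 and 0.0950 at ZT17 in Control. Deficient tendons gave 0.471, 0.518 and 0.335 CPM at ZT05 and 1.95, 1.51 and 5.60 at ZT17 (2.72 ± 0.50, adjusted p = 0.00384).

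The quadriceps (1.06 ± 0.30, adjusted p = 0.027) was the other tissue. In the heart Cxcl13 was at 2.67 ± 0.99 in females (adjusted p = 0.105) and at 2.56 ± 0.66 in males (adjusted p = 0.192), neither called. In the spleen, where Cxcl13 is abundant, it fell from 255, 304 and 422 CPM to 214, 246 and 298 (-0.36 ± 0.08, adjusted p = 0.0159, edgeR). Of B cell markers, which in the gastrocnemius comprised 1 tested gene (Ighm), that gene fell in gastrocnemius, its tendon and quadriceps (1 tested in each). In the spleen 1 of 10 B cell markers fell.

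Spleen also had a low Cxcl14, 0.214, 0.420 and 1.05 CPM against 0.0564, 0.121 and 0.148 (-2.17 ± 0.40, adjusted p = 0.00808, edgeR), with no overlap. Cxcl14 was called in no other response, although it was the leading chemokine of the quadriceps and tibialis anterior in both sexes.

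The second question was whether levels differed between ZT05 and ZT17. In Control females 13 of 304 pairs were higher at ZT17 and 6 lower, against 2.25% and 2.43% of all pairs. The share of all genes called in either direction differed by tissue. For these females it was 23% in BAT, 18.6% in liver, 8.77% in kidney, 7.2% in soleus and 7.01% in tibialis anterior. EDL had 6.72%, lung 6.68% and quadriceps 4.04%. In Control males 5 of 224 were higher and 3 lower (background 0.838% and 0.622%). By tissue the share in either direction was 6.03% in lung, 5.93% in BAT, 5.59% in soleus and 1.14% in tibialis anterior. In Deficient females 12 were higher and 2 lower (background 1.31% and 1.21%), and in Deficient males 1 differed (background 0.258%). The share in Deficient females was 12.2% in BAT, 6.76% in EDL, 5.06% in gastrocnemius tendon and 3.98% in tibialis anterior. Soleus had 2.51%, lung 2.27% and quadriceps 1.85%. BAT of Deficient males had 1.05%.

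Cxcl5, a neutrophil attractant that airway epithelium makes, was higher in the lung at ZT17 in both arms and both sexes by level. Control females gave 0.228, 0.431 and 0.462 CPM at ZT05 and 2.11, 3.22 and 3.60 at ZT17 (2.98 ± 0.55, adjusted p = 0.0103). Deficient females gave 0.202, 0.298 and 0.620 CPM and then 3.30, 10.8 and 4.06 (3.99 ± 0.56, adjusted p = 0.0127). Every library of ZT17 was above every library of ZT05 in these arms, and the Deficient call was lost on leaving out 1 of the 12 libraries.

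Control males gave 1.45, 0.689 and 0.216 CPM of Cxcl5 at ZT05 and 10.4, 3.84 and 10.6 at ZT17 (3.36 ± 0.56, adjusted p = 0.0157, edgeR). Deficient males gave 1.07, 0.805 and 0.618 CPM and 4.84, 4.07 and 2.76, again without overlap, but with an adjusted p of 0.65 (2.21 ± 0.56). The response of Cxcl5 did not depend on time by test in either sex (adjusted p = 0.53 and 0.404). No lung neutrophil marker of 9 tested was called between times in Control or Deficient females, and 1 of 7 was lower at ZT17 in Control males.

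Other lung chemokines were lower at ZT17. In Control females Cxcl15 went from 1248, 1036 and 1389 CPM to 477, 664 and 516 (-1.13 ± 0.29, adjusted p = 0.0436) and Cxcl12 from 183, 130 and 123 to 89.5, 66.8 and 85.5 (-0.84 ± 0.16, adjusted p = 0.00873). The groups did not overlap, but the Cxcl15 call was lost without any of 8 single libraries, and Cxcl15 in males (476, 290 and 651 CPM, then 409, 768 and 523) was not called. Ccl11 was lower at ZT17 in Control male lungs (2.40, 12.7 and 7.27 CPM, then 1.11, 1.65 and 2.07; -2.20 ± 0.60, adjusted p = 0.0482, edgeR). Lymphocyte markers were lower at ZT17 beside these, 12 of 13 T and NK cell and 8 of 10 B cell markers in Control females and 8 of 11 T and NK cell markers in Control males. Their part was not tested.

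In the EDL and tibialis anterior of Control females, Cxcl14, Cxcl12 and Cxcl11 were all called higher at ZT17. Soleus had such calls for Cxcl12 and Cxcl11 only, quadriceps for Cxcl14 only, and gastrocnemius for none of them. Cxcl14 in the EDL went from 24.5, 29.1 and 27.7 CPM to 64.7, 63.2 and 54.4 (1.18 ± 0.11, adjusted p = 7.21e-05). In the quadriceps it went from 56.2, 67.1 and 65.8 CPM to 113, 128 and 110 (0.92 ± 0.16, adjusted p = 0.00796) and in the tibialis anterior from 39.4, 61.8 and 67.9 to 111, 113 and 95.6 (0.95 ± 0.16, adjusted p = 0.00335). None of these overlapped.

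Deficient females had a smaller step in Cxcl14. EDL gave 33.7, 33.9 and 37.6 CPM at ZT05 and 40.9, 41.4 and 51.9 at ZT17 (0.34 ± 0.11, adjusted p = 0.0758). The response in the EDL therefore differed between times by -0.84 ± 0.16 (adjusted p = 0.0483, edgeR), the 1 female pair of 304 so called, with 0.731% over all pairs. In quadriceps (-0.86 ± 0.23, adjusted p = 0.222) and tibialis anterior (-0.71 ± 0.22, adjusted p = 0.218) this difference was not called.

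Cxcl11, a CXCR3 ligand listed as a pseudogene in the reference strain, was higher at ZT17 in Control females in the EDL (1.30 ± 0.27), soleus (1.59 ± 0.40) and tibialis anterior, where it went from 0.625, 0.685 and 0.668 CPM to 2.51, 2.08 and 3.61 (2.06 ± 0.34, adjusted p = 0.00253). Liver was a further case, from 3.65, 3.62 and 5.32 CPM to 6.91, 7.46 and 6.44 (0.74 ± 0.23, adjusted p = 0.0375, edgeR). Part of its transcript is shared with other genes, so these levels are uncertain.

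Cxcl12 was higher at ZT17 in Control females in the EDL (0.44 ± 0.12), soleus (0.52 ± 0.15), tibialis anterior (0.42 ± 0.12) and liver (0.54 ± 0.13). In the EDL, soleus and tibialis anterior the adjusted p was 0.0462, 0.0473 and 0.0493 (edgeR). Each of these calls was lost when some replicates were left out. Male Control soleus went from 183, 167 and 186 CPM to 330, 277 and 252 (0.67 ± 0.13, adjusted p = 0.0116). In Deficient females Cxcl12 was also higher at ZT17 in the EDL (0.46 ± 0.12), soleus (0.77 ± 0.15) and tibialis anterior (0.54 ± 0.12, adjusted p = 0.0215). In BAT the direction was opposite, from 345, 304 and 247 CPM to 121, 109 and 107 in Control (-1.38 ± 0.22, adjusted p = 0.00137) and from 223, 153 and 137 to 93.6, 68.0 and 127 in Deficient females (-0.81 ± 0.22, adjusted p = 0.0331, edgeR).

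Ccl11 was lower at ZT17 in the soleus of Control females (40.2, 38.8 and 31.3 CPM, then 15.2, 19.7 and 19.9; -0.98 ± 0.15, adjusted p = 0.00196). Control males had the same direction in soleus (19.7, 17.7 and 19.1 CPM, then 11.3, 12 and 12.8; -0.66 ± 0.15, adjusted p = 0.0249) and tibialis anterior (15.8, 15.8 and 14.8 CPM, then 9.30, 7.44 and 10.2; -0.77 ± 0.15, adjusted p = 0.0261). The 2 times did not overlap in any of these 3. Ccl6 was higher at ZT17 in the male Control soleus (1.09 ± 0.29), and Ccl8 was lower in the female Control tibialis anterior (-1.80 ± 0.46, under 1 CPM in each library). Cxcl16 was lower in the female Control kidney, from 56.1, 53.3 and 59.5 CPM to 41.6, 37.7 and 40.2 (-0.50 ± 0.10, adjusted p = 0.00696, edgeR). Ccl24 was higher at ZT17 in BAT of Control females (1.29 ± 0.40).

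**Figure D5:**
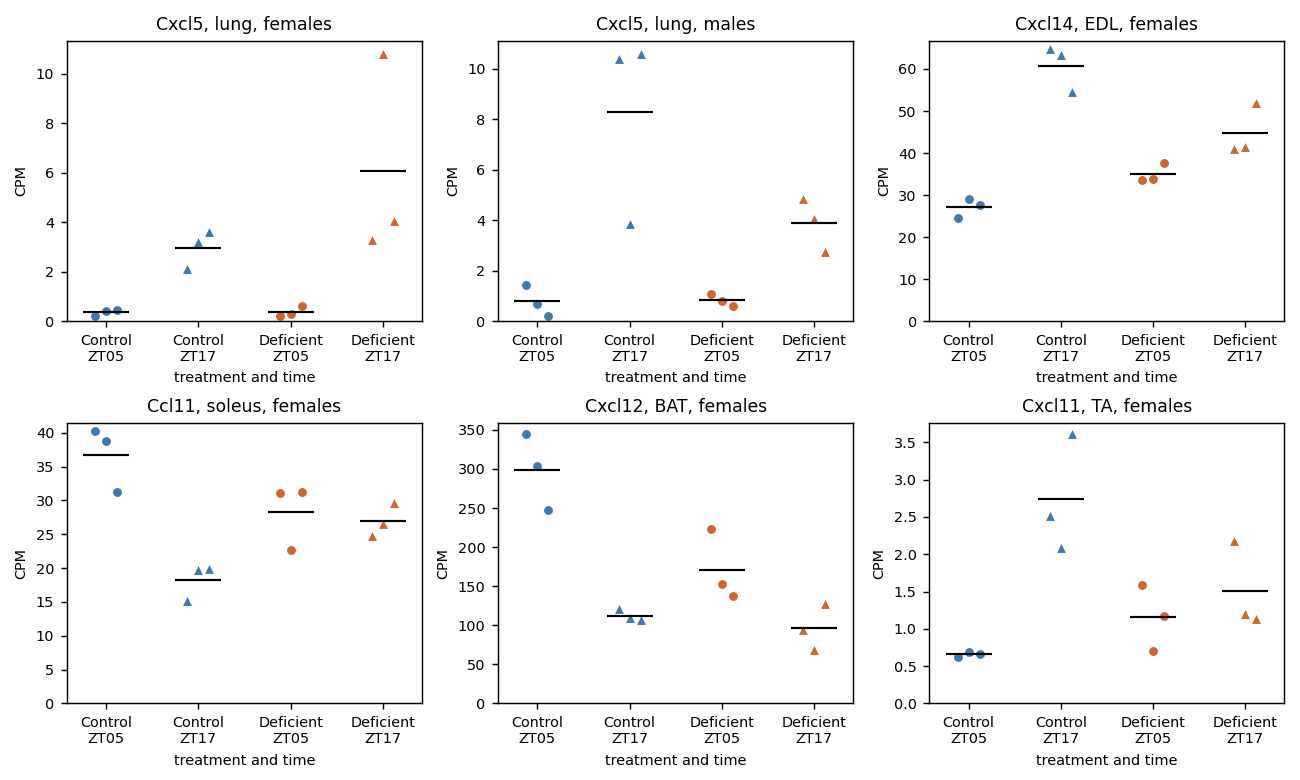
CPM (linear axes from 0) by treatment and time for Cxcl5 in lung (both sexes) and, in females, Cxcl14 in EDL, Ccl11 in soleus, Cxcl12 in BAT and Cxcl11 in tibialis anterior (TA), 1 point per library, circles ZT05 and triangles ZT17, black lines the mean of 3. Lung Cxcl5 was higher at ZT17 in both arms, while Cxcl14 in Control EDL was 24.5 to 29.1 CPM at ZT05 and 54.4 to 64.7 CPM at ZT17.

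In Deficient females the macrophage-made members were higher at ZT17 in several tissues. Ccl6 in the gastrocnemius tendon went from 3.29, 0.907 and 1.40 CPM to 7.28, 7.86 and 6.83 (1.95 ± 0.39, adjusted p = 0.0153) and Ccl9 from 3.09, 0.518 and 1.01 to 6.39, 4.65 and 5.95 (1.87 ± 0.46, adjusted p = 0.0356). Cxcl13 rose there by 2.75 ± 0.59, in BAT by 2.62 ± 0.63 and in quadriceps by 1.94 ± 0.41. BAT also had Ccl6 (1.41 ± 0.35) and Ccl9 (1.31 ± 0.38) higher and Cxcl14 lower (-0.82 ± 0.25), and the tibialis anterior had Ccl9 higher (1.51 ± 0.31, adjusted p = 0.0143, edgeR). Of 13 macrophage markers tested in BAT, 4 were higher at ZT17 as well. In the gastrocnemius tendon none of 14 was called, and the chemokine calls there were lost without some single libraries. Cxcl13 in the tendon was at 1.94 (adjusted p = 0.109) without replicate 3 of Deficient at ZT17.

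In male BAT the response changed sign between times for Ccl6 and Cxcl13, the 2 male pairs of 224 called for this difference (0.675% over all pairs). In the male BAT fit itself 10 chemokine genes were tested, and 12.6% of all tested genes were called for this difference. Ccl6 gave 11.4, 11.3 and 9.96 CPM in Control at ZT05, 48.0, 22.1 and 57.6 in Control at ZT17, 97.9, 42.4 and 40.6 in Deficient at ZT05 and 21.2, 13.4 and 2.99 in Deficient at ZT17 (-4.6 ± 0.85, adjusted p = 0.00308). Cxcl13 gave 2.41, 2.18 and 3.41, then 9.82, 30.0 and 27.6 in Control, and 76.7, 32.1 and 11.8, then 9.25, 2.03 and 2.10 in Deficient libraries (-6.57 ± 1.04, adjusted p = 0.00119, edgeR). Control was thus high at ZT17 and Deficient at ZT05. Within Control both were higher at ZT17 (Ccl6 2.15 ± 0.61, Cxcl13 3.19 ± 0.76), and within Deficient Cxcl13 was lower (-3.38 ± 0.71, adjusted p = 0.0342).

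These BAT libraries differed in depth and in marker genes in the same way. Counts outside mitochondrial and rRNA-like genes were 332749 to 455830 in Control at ZT17 and 569680 to 850917 in Deficient at ZT05, where Ccl6 and Cxcl13 were high. They were 1509433 to 2547000 in Control at ZT05 and 1295708 to 14049675 in Deficient at ZT17, of which the deepest was the 1 second-cohort library. Summed macrophage markers were 771 to 998 CPM and 354 to 1013 CPM in the first 2 groups and 216 to 497 CPM and 94.5 to 419 CPM in the other 2, and 8 of 11 tested macrophage markers had a called difference of the same sign. Their part, and that of depth, was not tested. Both calls of a response differing between times held with each of the 12 libraries left out in turn. That of Ccl6 was lost without all replicate 1 libraries (adjusted p = 0.0629, edgeR). Of the calls between times within an arm, Ccl6 in Control was lost in 8 of 12 omissions. Cxcl13 was lost in 5 in Control and in 8 in Deficient. The Cxcl13 call in Deficient was also lost with a cohort term (adjusted p = 0.073, edgeR). Female BAT had no such difference (Ccl6 1.01 ± 0.49, adjusted p = 0.327, edgeR).

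Direct comparison of the response between the sexes called 2 of 274 pairs, with 1.15% over all genes. In the kidney alone 13.8% of tested genes were called for this difference, and in the adrenal gland 1.78%. Besides Cxcl12 in the kidney the other pair was Ccl3 in the adrenal gland, at 0.0224 to 0.815 CPM in each library. Females had 0.400, 0.140 and 0.176 CPM, then 0.149, 0.0224 and 0.0784 in Control, and 0.342, 0.228 and 0.370, then 0.311, 0.121 and 0.327 in Deficient libraries. Males went the other way, from 0.281, 0.522 and 0.815, then 0.379, 0.748 and 0.407 to 0.120, 0.0789 and 0.173, then 0.194, 0.405 and 0.260. The difference was 2.43 ± 0.59 (adjusted p = 0.0375, edgeR), and neither sex alone was called (1.0 ± 0.46 and -1.42 ± 0.36).

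Chemokine receptors fell more often than they rose in females. Of 133 receptor and tissue pairs tested in females 20 fell and 2 rose (median -0.28), and in males 4 of 88 fell and none rose (median -0.41). Over all genes, 7.37% of pairs fell and 6.75% rose in females, and 2.45% fell and 2.29% rose in males. In the uterus Ccr3, the eotaxin receptor, went from 3.78 ± 1.79 to 0.131 ± 0.121 CPM (SD, n = 6; log2 -4.83 ± 0.66, SE) and Ccr1 from 2.68 ± 2.21 to 0.418 ± 0.186 CPM (-2.58 ± 0.47). Ccr2 went from 18.0 ± 5.19 to 8.86 ± 1.89 CPM (-1.01 ± 0.21), and Xcr1, on dendritic cells, changed by -1.13 ± 0.35. Cxcr4, the receptor of CXCL12, rose in the uterus from 7.77 ± 5.05 to 17.1 ± 4.03 CPM (1.16 ± 0.39). Ccr2, which reads CCL2 and CCL7, also fell in female EDL, kidney, ovary, soleus and tibialis anterior (-0.74 ± 0.15 in soleus, -1.34 ± 0.29 in the ovary), and in the male tibialis anterior (-1.40 ± 0.33).

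Cxcr4 fell in the EDL of females (-0.48 ± 0.15) and males (5.05 ± 0.702 to 2.71 ± 0.683 CPM, -0.87 ± 0.16) and in the male tibialis anterior (-1.03 ± 0.20). Among the atypical receptors, counted apart, Ackr3, the scavenger of CXCL12, fell in 6 female tissues, from 50.5 ± 10.4 to 30.8 ± 10.9 CPM in the kidney (-0.74 ± 0.12) and by 0.36 to 0.51 on the log2 scale in EDL, gastrocnemius, gastrocnemius tendon, quadriceps and soleus. Cx3cr1, which reads fractalkine, fell in the male kidney (-0.72 ± 0.21), where Cx3cl1 fell too, and in the female soleus (-0.86 ± 0.24), where Cx3cl1 was not called. In the female kidney (-0.52 ± 0.16, adjusted p = 0.0506), the uterus (-0.39 ± 0.21, adjusted p = 0.151) and the male soleus (-0.45 ± 0.26, adjusted p = 0.281, edgeR), where Cx3cl1 fell, Cx3cr1 was not called. Ccr7, the lymph node homing receptor, rose in the female lung (0.62 ± 0.15), and Ccrl2, an atypical receptor, rose in the ovary from 2.68 ± 0.599 to 7.36 ± 1.42 CPM (1.48 ± 0.19).

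Of the remaining members, Ccl1, Ccl17, Ccl20, Ccl22, Cxcl3 and Xcl1 were tested in 1 to a few tissues and called in none. Ccl19, Ccl21a, Ccl21b, Ccl21c, Ccl26, Ccl27 and Ccl27b passed the filter in no response fit. Each of these rows held between 0 and 278 counts over all 419 libraries. How reads that match several copies were counted is not given in the sources used here.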

How the data were processed

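The authors deposited a table of raw counts per gene for 419 libraries (TRIzol RNA, 500 ng, TruSeq Stranded mRNA, per the labels' protocols). The submitters' processing notes list FastQC 0.11.9, cutadapt 4.1, STAR 2.7.10a, DESeq2 1.34.0 and the build GRCm38 (mm10). The counting tool and annotation release are not given in the sources used here. The deposited normalized table was not used. All count columns were mapped to samples by title.

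Each tissue and sex was fitted apart in edgeR 4.0.16 (R 4.3.3) with 4 groups of treatment and time, filterByExpr (minimum count 10, total 15), TMM and a robust quasi-likelihood fit, adjusted by Benjamini-Hochberg over all genes tested. The sex difference came from 1 shared fit in each of 16 tissues. SE is the absolute log2 fold change over the root of F. Levels are CPM with TMM over all 419 libraries. Fits were tested on simulated data. Alternatives included DESeq2 1.42.0, other filters, a shared fit of both sexes, a cohort term, a replicate block and left-out replicates. Leaving out single libraries in 8 fits was chosen after seeing the data.

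One receptor is not reported here. Genes were named where 2 or more tissues of a sex gave calls of one direction, or where they had the largest called change of a tissue and sex at 1 CPM or more, had one of the 3 largest time or sex differences, or led a tissue in Control. Others named were chosen after their values were seen. The members and lists were chosen with earlier results of these data known. Positions are from GENCODE M21, and 274 of 278 list members were matched.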

Additional observations from a re-analysis of the deposited data

Results flagged for a closer look

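In arms of 6 libraries a single library stood far from the others in 15 of 150 arms compared (Dixon's criterion), and 13 of these libraries were the highest of their arm. Chance meets this criterion in about 1 in 20 groups of normally distributed values. The arms here hold untransformed CPM of called genes and pool both times, so that rate does not carry over to them. In the uterus, replicate 1 of Control at ZT17 stood apart for Ccl28 (76.9 CPM, next 39.7), Ccl3 (3.98, next 0.694), Ccl4 (2.64, next 0.548), Cxcl1 (5.9, next 1.51), Cxcl2 (9.61, next 1.11) and Cxcl5 (85.4, next 4.07). These 6 values belong to 1 library. Replicate 2 of Control at ZT17 stood apart for Cxcl15 (1.45 CPM, next 0.0915), and replicate 1 of Deficient at ZT05 for Ccl8 (7.96, next 3.62) and Cxcl5 (1.03, next 0.262).

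In the gastrocnemius of females, replicate 2 of Deficient at ZT17 stood apart for Cxcl13 (12.6 CPM, next 4.95) and Cxcl16 (3.3, next 1.86). In the gastrocnemius tendon, replicate 3 of Deficient at ZT17 stood apart for Cxcl13 (5.6 CPM, next 1.95). In the tibialis anterior, replicate 3 of Control at ZT17 was high for Ccl24 (4.97 CPM, next 1.87), replicate 1 of Control at ZT17 was low for Cxcl16 (2.85, next 3.23), and replicate 3 of Deficient at ZT17 was low for Ccl8 (0, next 0.0972).

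In 5 cases the response itself differed between times or sexes by edgeR's test. Between times these were Cxcl14 in the female EDL (-0.84 on the log2 scale), Ccl6 in male BAT (-4.60) and Cxcl13 in male BAT (-6.57). Between the sexes they were Ccl3 in the adrenal gland (2.43) and Cxcl12 in the kidney (-0.63), tissues in which all male libraries are of the second cohort.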

How the results depend on the processing

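The number of called chemokine pairs depended on the setting in most contrasts, and none of the called changes reversed. The female response had 62 calls, with 61 under DESeq2's size factors, 71 without the low-count filter, 51 with a stricter one, 74 with DESeq2 and 42 with both sexes in one fit, and 32 to 43 with a replicate left out. Without the filter the other counts went from 13 to 34 (male response), 2 to 9 (sex difference), 1 to 6 and 2 to 11 (time dependence, female and male), 19 to 35 and 8 to 20 (time in Control) and 14 to 28 and 1 to 11 (time in Deficient). With DESeq2 they were, in that order, 20, 6, 6, 5, 35, 14, 24 and 7. A stricter filter gave 2 for the female time dependence. With both sexes in one fit the time dependence had 0 and 7 calls, time in Control 12 and 16, and time in Deficient 4 and 4. A cohort term gave 5 for the male time dependence, and the sex difference had 0 calls in heart, lung, pituitary and liver only. With a replicate left out the counts were 4 to 8 (male response), 0 to 1 (sex difference), 0 to 1 and 1 to 3 (time dependence), 7 to 15 and 1 to 2 (time in Control), 1 to 6 and 0 (time in Deficient). The causes were not tested, except that a left-out replicate leaves fewer samples.

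Same-numbered samples showed mean correlations from -0.12 to 0.248, and in 0 of 35 fits was every pair over 0.1, so the numbers were not taken to pair samples. With a replicate block the counts were 59 and 10 (response), 20 and 9 (time in Control), 15 and 1 (time in Deficient), 1 and 2 (time dependence) and 3 (sex difference).

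Of the 62 female and 13 male responses, 28 and 6 kept their call under every alternative that kept all libraries, and 17 and 2 also with each replicate left out. The 17 are Ccl9, Cxcl12 and Cxcl16 in the EDL and tibialis anterior, Cxcl16 in soleus, Ccl9 in liver, and Ccl6, Ccl7, Ccl8, Ccl9, Ccl12, Ccl28, Cxcl15, Cxcl16 and Cxcl17 in the uterus. The 2 are Ccl28 and Cxcl12 in the male kidney. For time in Control, 7 of 19 female and 6 of 8 male calls held under every such alternative. With each replicate also left out, 3 and 0 held. For time in Deficient, 3 of 14 and 0 of 1 held under every alternative, and 0 and 0 with left-out replicates as well. For time dependence these were 0 of 1 and 2 of 2, then 0 and 1. For the sex difference they were 1 of 2, then 0. First-cohort male libraries with few counts outside mitochondrial and rRNA-like genes limit what could be detected there.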
